A study of Mus musculus with 18 samples.

Results

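Collagen genes were taken as all genes of the deposited count tables whose symbol is Col, a number, the letter a and a number, which gave 44 genes among 38243. They fell into 11 fibrillar collagens, 9 fibril-associated collagens with interrupted helices (FACIT), 3 network collagens, 9 collagens of basement membranes, 6 beaded filament collagens, 4 transmembrane collagens and 2 others. RNA was measured in 18 libraries from 6 female C57BL/6 embryos at embryonic day 16.5, of which 3 were heterozygous for the Apert syndrome mutation (Fgfr2+/S252W) and 3 were littermates without it (Fgfr2+/+). Laser capture microdissection gave 1 library each of mandibular bone, Meckel's cartilage (MC) and mandibular condylar cartilage from each embryo, without pooling. Levels are fragments per kilobase of exon, scaled to library size (FPKM), with normalization by the trimmed mean of M-values, and the values of a group are given in the order of replicates 1, 2 and 3. Of the 44 genes, 30 passed a filter of more than 1 FPKM in at least 50% of the libraries and were tested among 11469 genes. The filter was applied to FPKM from library totals, before this normalization, so that Col4a5 and Col8a1 passed it with 9 libraries and Col23a1 with 10, although their levels as given here are above 1 FPKM in 8.

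Collagens are the main proteins of the extracellular matrix. Their chains wind around each other in a triple helix, which requires a glycine at a fixed place in each short repeat of the chain. Fibrillar collagens assemble into fibrils, in bone mainly of type I and in cartilage mainly of type II. FACIT collagens decorate these fibrils, network collagens form open meshes such as the type X lattice around hypertrophic chondrocytes, and type IV collagens build the sheets under endothelium and epithelium. In the mandible, MC is a rod that serves as a template for the early jaw, and condylar cartilage is a secondary cartilage in which chondrocytes mature and enlarge.

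The repeat is visible in the coding sequence of the members. In the transcripts of GENCODE M21 (GRCm38), the longest unbroken run of triplets that begin with a glycine codon was between 216 and 344 triplets long in the 11 fibrillar genes. It was between 32 and 113 triplets in the 9 FACIT genes, between 30 and 75 in the 9 basement membrane genes, and 59, 60 and 60 in the 3 network genes. To show this feature in members that differ between the tissues, 54 bases from inside 1 exon were read from each of 6 genes, 5′ to 3′ on the strand of the gene, with the glycine codon that opens each triplet in capitals.
Col1a1, chr11:94939904-94939957, plus strand, exon 8: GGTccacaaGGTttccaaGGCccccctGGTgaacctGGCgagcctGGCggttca
Col2a1, chr15:97998545-97998598, minus strand, exon 6: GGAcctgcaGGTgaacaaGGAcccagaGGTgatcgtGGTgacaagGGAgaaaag
Col9a1, chr1:24202014-24202067, plus strand, exon 11: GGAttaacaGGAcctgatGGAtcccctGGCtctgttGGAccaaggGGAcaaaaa
Col4a1, chr8:11245211-11245264, minus strand, exon 7: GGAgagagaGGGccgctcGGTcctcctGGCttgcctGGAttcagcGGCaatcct
Col10a1, chr10:34394202-34394255, plus strand, exon 3: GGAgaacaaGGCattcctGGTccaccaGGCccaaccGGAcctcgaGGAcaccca
Col8a1, chr16:57628738-57628791, minus strand, exon 4: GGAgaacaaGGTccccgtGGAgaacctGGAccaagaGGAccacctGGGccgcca
In Col1a1, Col2a1, Col9a1 and Col4a1 the stretch shown is a whole exon of 54 bases. In Col10a1 and Col8a1 it lies inside a single long coding exon of 1886 and 1904 bases. Exon intervals of exactly 54 bases made up 46.7% of the 653 intervals of the fibrillar genes and 24.2% of the 443 intervals of the FACIT genes in the authors' annotation. They made up 4.37% of the intervals of the basement membrane genes, none of the 12 intervals of the network genes and 0.556% of the intervals of all protein-coding genes.

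Totals lay between 8218548 and 15585778 counted fragments per library. Bone libraries held osteoblast markers and condylar libraries held chondrocyte markers at high levels, whereas the summed level of 8 chondrocyte markers in MC was between 27.2 and 355 FPKM, against 2427 to 2943 FPKM in condylar cartilage and 11.6 to 17.3 FPKM in bone. On such measures, 4 libraries that stood apart from the others of their group were left out together in further fits, a choice made after the data were seen. The Fgfr2+/+ MC replicate 1 had the lowest chondrocyte marker sum of the MC libraries, and the Fgfr2+/+ bone replicate 3 had mitochondrial genes at 20.4% of its fragments against 36.0% and 34.8% in the other Fgfr2+/+ bone libraries and 23.4% to 23.6% in the Fgfr2+/S252W ones. Replicate 3 of both genotypes in condylar cartilage had the highest osteoblast marker sums of that tissue, 3324 FPKM in Fgfr2+/+ and 5216 FPKM in Fgfr2+/S252W. The Fgfr2+/S252W MC replicate 1 was as far from its group, with a chondrocyte marker sum of 355 FPKM against 80.9 and 70.1 FPKM, and was left out with the 4 in another fit, given where it changed a result. Fgfr2 itself did not pass the test in any tissue (log2 difference -0.024, -0.31 and 0.31 in bone, MC and condylar cartilage, limma adjusted p = 0.995, 0.553 and 0.998). The mutation exchanges an amino acid, so the level of the gene does not check the labels.

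Collagens took a large part of the RNA of bone and condylar cartilage and a small part of that of MC. Their fragments were 5.202% ± 2.80 (SD, n = 3) of all fragments in Fgfr2+/+ bone and 7.16% ± 0.0896 (SD, n = 3) in Fgfr2+/S252W bone. In condylar cartilage they were 5.59% ± 0.428 (n = 3) and 5.33% ± 0.279 (n = 3), and in MC 0.868% ± 0.325 (n = 3) and 1.02% ± 0.394 (n = 3), in the same order of genotypes. The Fgfr2+/+ bone libraries spread from 3.24% to 8.41%, and the 3 Fgfr2+/S252W libraries lay inside this range. Mitochondrial genes and the ribosomal RNA repeat gene Gm42418 took a varying part of each library, and without them the shares were 8.30% and 10.2% in bone, 8.80% and 9.03% in condylar cartilage and 2.30% and 3.19% in MC. Gm42418 took 24.1% to 39.4% of the fragments of MC libraries, against 5.58% to 9.33% in bone and 10.9% to 20.2% in condylar cartilage. This part runs with the tissue, and the 2 cannot be told apart. The widest 95% Wilson interval of a single library spanned 0.0306 percentage points, which covers counting error only. In bulk tissue, fewer cells of a type and less RNA per cell cannot be told apart.

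The makeup of this collagen fraction differed between the tissues. Col1a1 and Col1a2 together gave 74.2% to 84.6% of the collagen fragments in bone, 13.9% to 42.2% in MC and 10.02% to 25.9% in condylar cartilage. Col2a1 gave 0.143% to 0.627% in bone, 1.84% to 36.2% in MC and 41.1% to 45.7% in condylar cartilage. The 9 FACIT genes held 21.4% ± 1.26 (SD, n = 3) of the collagen fragments in Fgfr2+/+ MC and 20.997% ± 1.62 in Fgfr2+/S252W MC, mostly as Col12a1 (12.2% to 19.6%). In bone the FACIT share was 4.85% ± 1.45 and 2.97% ± 0.257. Col10a1 alone gave 2.23% to 7.64% of the collagen fragments in condylar cartilage.

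**Figure D1:**
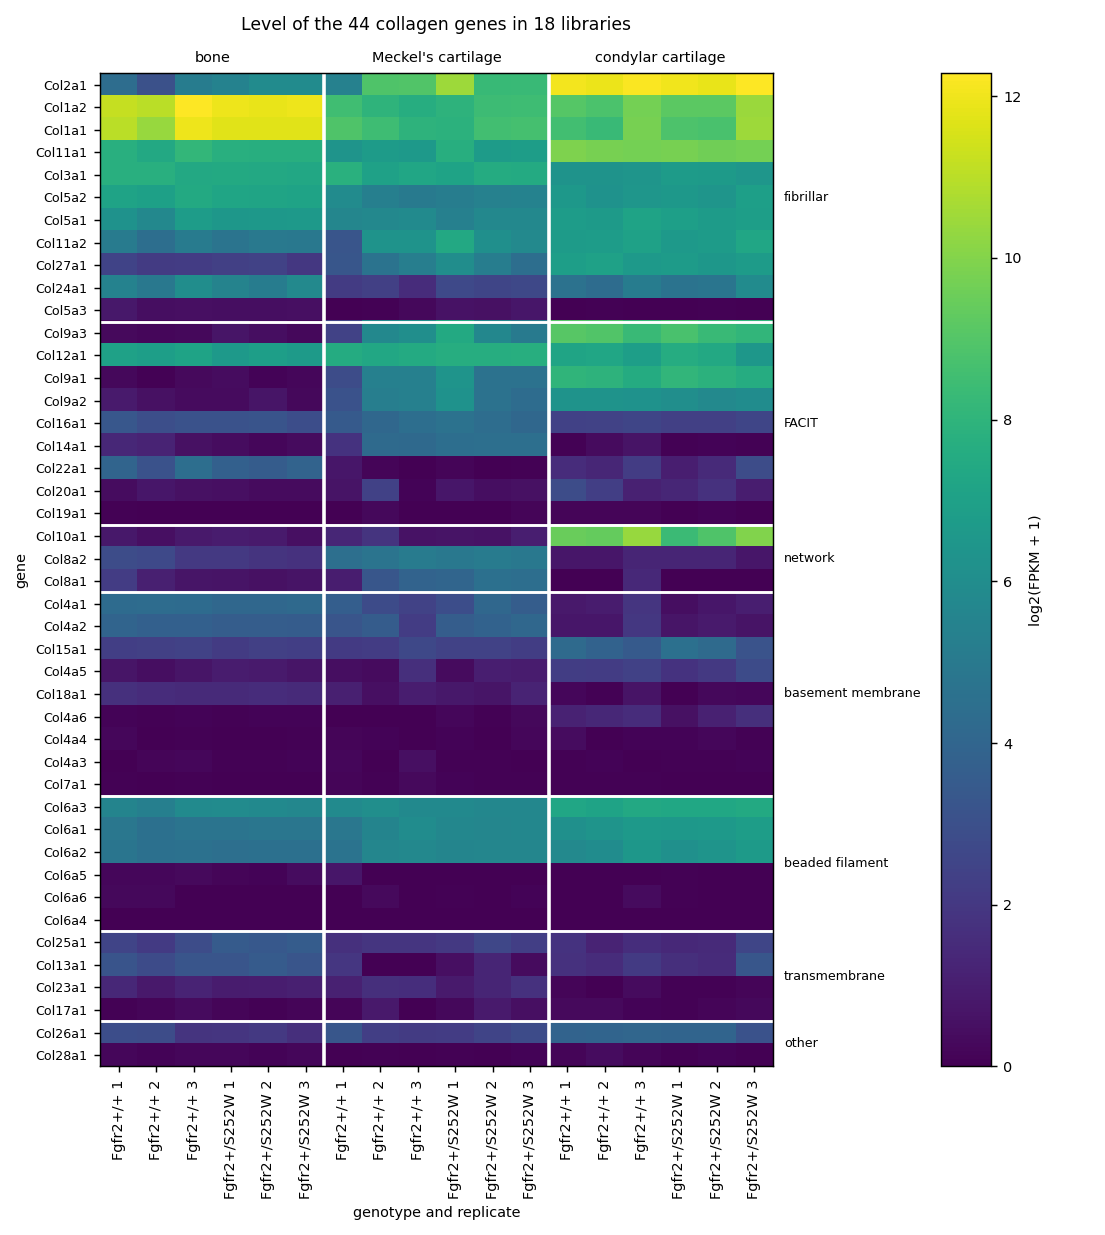
Level of the 44 collagen genes in the 18 libraries as log2(FPKM + 1), with genes in rows grouped by class and libraries in columns grouped by tissue and genotype. Col1a2 is brightest in the 6 bone libraries and Col2a1, Col9a1, Col9a3 and Col10a1 in the 6 condylar libraries, without overlap with the other tissues, and 10 genes stay under 1 FPKM in every library.

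Tissue was compared within embryos, as inferred from the sample codes, and averaged over both genotypes. Between bone and MC, 10 of the 30 collagen genes were higher in bone and 12 lower, against 24.7% and 24.6% of all genes tested (49.3% in either direction). Between bone and condylar cartilage, 13 were higher in bone and 15 lower, against 21.6% and 19.6% of all genes (41.3% in either direction). Between condylar cartilage and MC, 21 were higher in condylar cartilage and 8 lower, against 27.1% and 27.4% of all genes (54.4% in either direction). The median log2 difference of the 30 genes was -0.31, -0.35 and 1.22 in these comparisons, against -0.0024, -0.0027 and -0.0077 for all genes. Without the 4 libraries that stood apart, 26, 30 and 27 of the 30 passed, against 51.7%, 43.8% and 54.4% of all genes. Col14a1, which entered that fit through the groups where it is high, is not counted.

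A total of 15 collagen genes were highest in condylar cartilage, past the threshold against both other tissues, 7 were highest in bone and 4 in MC, against 12.4%, 7.47% and 15.5% of all genes tested. The 7 genes of bone were Col1a1, Col1a2, Col5a2, Col24a1, Col22a1, Col4a1 and Col25a1. The 4 genes of MC were Col8a1, Col8a2, Col12a1 and Col16a1. Col3a1, Col4a2, Col13a1 and Col23a1 had no single highest tissue. The places of Col11a2, Col12a1 and Col24a1 rest on differences that did not pass when single libraries were left out, as given with each gene.

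**Figure D2:**
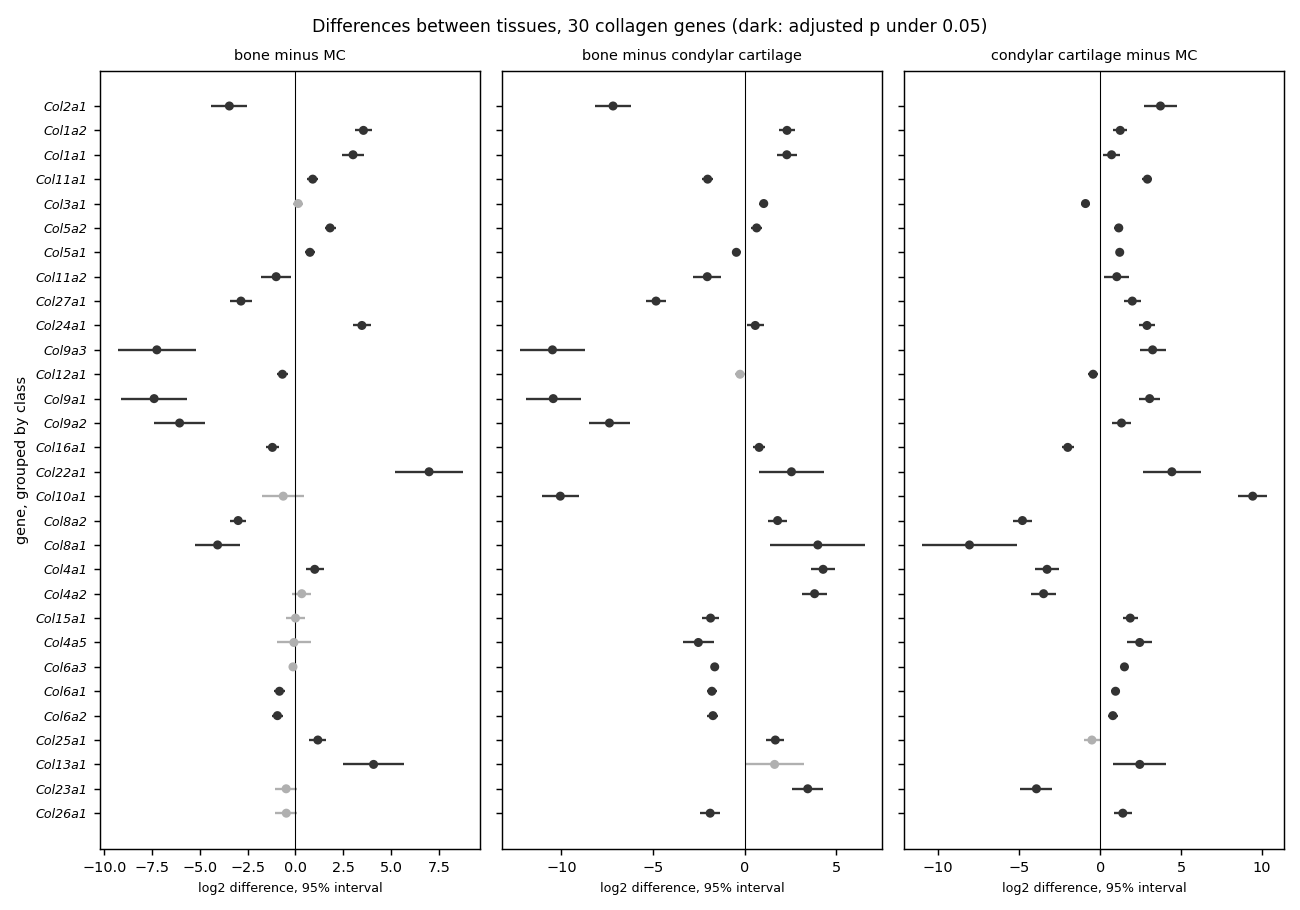
Log2 difference between tissues for the 30 tested collagen genes, with 95% intervals, in 3 panels; a positive value means higher in the tissue named first, and dark symbols mark an adjusted p under 0.05. The 3 Col9 genes, Col2a1, Col27a1 and Col10a1 lie far to the left in the comparison of bone with condylar cartilage, and Col8a1, Col8a2, Col4a1 and Col4a2 lie to the left in that of condylar cartilage with MC.

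The fibrillar collagens split between bone and condylar cartilage. Col1a1 and Col1a2 encode the chains of type I collagen, the bulk of bone matrix. In bone, Col1a1 was at 2048, 1332 and 3969.9 FPKM in the Fgfr2+/+ libraries and 3361, 3433 and 3354 FPKM in the Fgfr2+/S252W libraries. In MC, Col1a1 was at 481, 351 and 247 FPKM in the Fgfr2+/+ libraries and 239, 378 and 404 FPKM in the Fgfr2+/S252W libraries. In condylar cartilage, Col1a1 was at 374, 321 and 862 FPKM in the Fgfr2+/+ libraries and 464, 427 and 1411 FPKM in the Fgfr2+/S252W libraries. Every bone library lay above every MC library, and replicate 3 of each genotype was the highest in condylar cartilage, the Fgfr2+/S252W one above the lowest bone library. Col1a1 was higher in bone than in MC (log2 difference 3.01 ± 0.28, limma adjusted p = 2.60e-07) and than in condylar cartilage (log2 difference 2.30 ± 0.27, limma adjusted p = 2.04e-06). Its difference between condylar cartilage and MC was 0.71 (adjusted p = 0.0239 in limma) and did not pass without any 1 of 5 libraries (0.40 to 0.69, adjusted p = 0.0547 to 0.104), among them both condylar replicates 3, nor with edgeR (adjusted p = 0.0701) or without the 4 libraries that stood apart (log2 difference 0.17 ± 0.14, limma adjusted p = 0.313), and it was -0.0063 (limma adjusted p = 0.966) without the Fgfr2+/S252W MC replicate 1 as well.

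For Col1a2, bone libraries stood at 2379, 2067 and 4902 FPKM in the Fgfr2+/+ libraries and 4056, 3712 and 3966 FPKM in the Fgfr2+/S252W libraries. Its MC levels were 364, 253 and 203 FPKM in the Fgfr2+/+ libraries and 244, 339 and 351 FPKM in the Fgfr2+/S252W libraries. Its condylar levels were 523, 451 and 843 FPKM in the Fgfr2+/+ libraries and 582, 581 and 1393 FPKM in the Fgfr2+/S252W libraries. The 6 bone libraries lay above the other 12 without overlap. Bone exceeded MC (log2 difference 3.55 ± 0.22, limma adjusted p = 6.85e-09) and condylar cartilage (log2 difference 2.31 ± 0.21, limma adjusted p = 1.25e-07).

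Type III collagen, the product of Col3a1, accompanies type I in soft connective tissue. Bone libraries held Col3a1 at 212, 216 and 172 FPKM in the Fgfr2+/+ libraries and 174, 169 and 162 FPKM in the Fgfr2+/S252W libraries. In MC, Col3a1 stood at 219, 129 and 155 FPKM in the Fgfr2+/+ libraries and 139.7, 189 and 180.2 FPKM in the Fgfr2+/S252W libraries. In condylar cartilage, Col3a1 stood at 79.2, 79.1 and 83.7 FPKM in the Fgfr2+/+ libraries and 105, 101 and 87.8 FPKM in the Fgfr2+/S252W libraries. Bone and MC overlapped (log2 difference 0.14 ± 0.12, limma adjusted p = 0.359), and condylar cartilage was below both (bone over condylar cartilage, log2 difference 1.04 ± 0.12, limma adjusted p = 2.10e-06). Without the 4 libraries that stood apart the difference between bone and MC was larger (log2 difference 0.39 ± 0.11, limma adjusted p = 0.00728).

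Col2a1 encodes the chain of type II collagen, the main fibril of cartilage. In bone, Col2a1 was at 20.2, 7.31 and 34.6 FPKM in the Fgfr2+/+ libraries and 42.6, 59.9 and 60.6 FPKM in the Fgfr2+/S252W libraries. In MC, Col2a1 was at 41.6, 484 and 489 FPKM in the Fgfr2+/+ libraries and 1409.99, 306 and 321 FPKM in the Fgfr2+/S252W libraries. In condylar cartilage, Col2a1 was at 4245, 3916 and 4679.6 FPKM in the Fgfr2+/+ libraries and 4181, 3787 and 4988 FPKM in the Fgfr2+/S252W libraries. The Fgfr2+/+ MC replicate 1 lay inside the range of the bone libraries, and the Fgfr2+/S252W MC replicate 1 was the highest in MC, and these were also the MC libraries with the lowest and the highest chondrocyte marker sum. The part of cell makeup in this spread was not tested. Col2a1 was higher in condylar cartilage than in MC (log2 difference 3.73 ± 0.49, limma adjusted p = 6.29e-06) and in MC than in bone (bone minus MC, log2 difference -3.46 ± 0.45, limma adjusted p = 9.15e-06).

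Col11a1 and Col11a2 encode chains of type XI collagen, which lies inside cartilage fibrils and sets their width. In bone, Col11a1 was at 212, 168 and 279.8 FPKM in the Fgfr2+/+ libraries and 214, 207 and 207 FPKM in the Fgfr2+/S252W libraries. In MC, Col11a1 was at 82.1, 106 and 99.3 FPKM in the Fgfr2+/+ libraries and 206, 107 and 113 FPKM in the Fgfr2+/S252W libraries. In condylar cartilage, Col11a1 was at 957, 862 and 841 FPKM in the Fgfr2+/+ libraries and 862, 791 and 843 FPKM in the Fgfr2+/S252W libraries. The 6 condylar libraries lay above all others, and all bone libraries lay above 5 of the 6 MC libraries. Condylar cartilage exceeded bone (bone minus condylar cartilage, log2 difference -2.02 ± 0.14, limma adjusted p = 6.03e-09) and bone exceeded MC (log2 difference 0.90 ± 0.14, limma adjusted p = 4.95e-05).
Col11a2 had another order. In bone, Col11a2 was at 33.3, 20.6 and 33.6 FPKM in the Fgfr2+/+ libraries and 25.9, 30.2 and 29.5 FPKM in the Fgfr2+/S252W libraries. In MC, Col11a2 was at 8.41, 78.9 and 78.1 FPKM in the Fgfr2+/+ libraries and 171, 68.1 and 54.9 FPKM in the Fgfr2+/S252W libraries. In condylar cartilage, Col11a2 was at 105, 109 and 132 FPKM in the Fgfr2+/+ libraries and 99.7, 107 and 151 FPKM in the Fgfr2+/S252W libraries. MC spanned the range from below bone, in the Fgfr2+/+ replicate 1, to above condylar cartilage, in the Fgfr2+/S252W replicate 1. The difference between bone and MC (log2 difference -1.01 ± 0.37, limma adjusted p = 0.0304) did not pass without any 1 of 6 libraries (-0.92 to -0.67, adjusted p = 0.0783 to 0.146), and that between condylar cartilage and MC (log2 difference 1.03 ± 0.36, limma adjusted p = 0.0234) did not pass without any 1 of 5 (0.51 to 0.98, adjusted p = 0.0569 to 0.0884) or without the 4 that stood apart (log2 difference 0.22 ± 0.24, limma adjusted p = 0.458), nor with edgeR (adjusted p = 0.0892) or DESeq2 (adjusted p = 0.126). Condylar cartilage exceeded bone (log2 difference -2.04 ± 0.36, limma adjusted p = 0.000211 for bone minus condylar cartilage).

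Among the other fibrillar genes, Col5a1 and Col5a2 encode chains of type V collagen, which nucleates type I fibrils. Col5a1 ranged from 52.3 to 109 FPKM in bone, 39.8 to 57.1 in MC and 101 to 141 in condylar cartilage, where it was highest, and Col5a2 from 125 to 176, 32.2 to 60.4 and 76.2 to 122 FPKM, highest in bone. Col24a1 and Col27a1 encode fibrillar collagens with a slightly shorter helix. Runs of 3 or more triplets held 327 and 329 triplets in these genes, against 353 to 365 in the other fibrillar genes. Their longest unbroken runs were 216 and 217 triplets. Col24a1 was at 29.4 to 64.7 FPKM in bone, 1.92 to 5.48 in MC and 18.98 to 60.1 in condylar cartilage. Bone and condylar cartilage overlapped for Col24a1, and their difference (log2 difference 0.58 ± 0.22, limma adjusted p = 0.0447) did not pass without any 1 of 9 libraries (0.44 to 0.62, adjusted p = 0.0515 to 0.13), nor with edgeR (adjusted p = 0.051), other size factors or any other filter tried. Col27a1, a collagen of cartilage, went from 2.99 to 4.58 FPKM in bone over 8.85 to 64.9 in MC to 89.99 to 129 in condylar cartilage, without overlap between the tissues (condylar cartilage minus MC, log2 difference 1.99 ± 0.24, limma adjusted p = 2.64e-06). Col5a3 stayed under 1 FPKM in every library and was not tested.

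**Figure D3:**
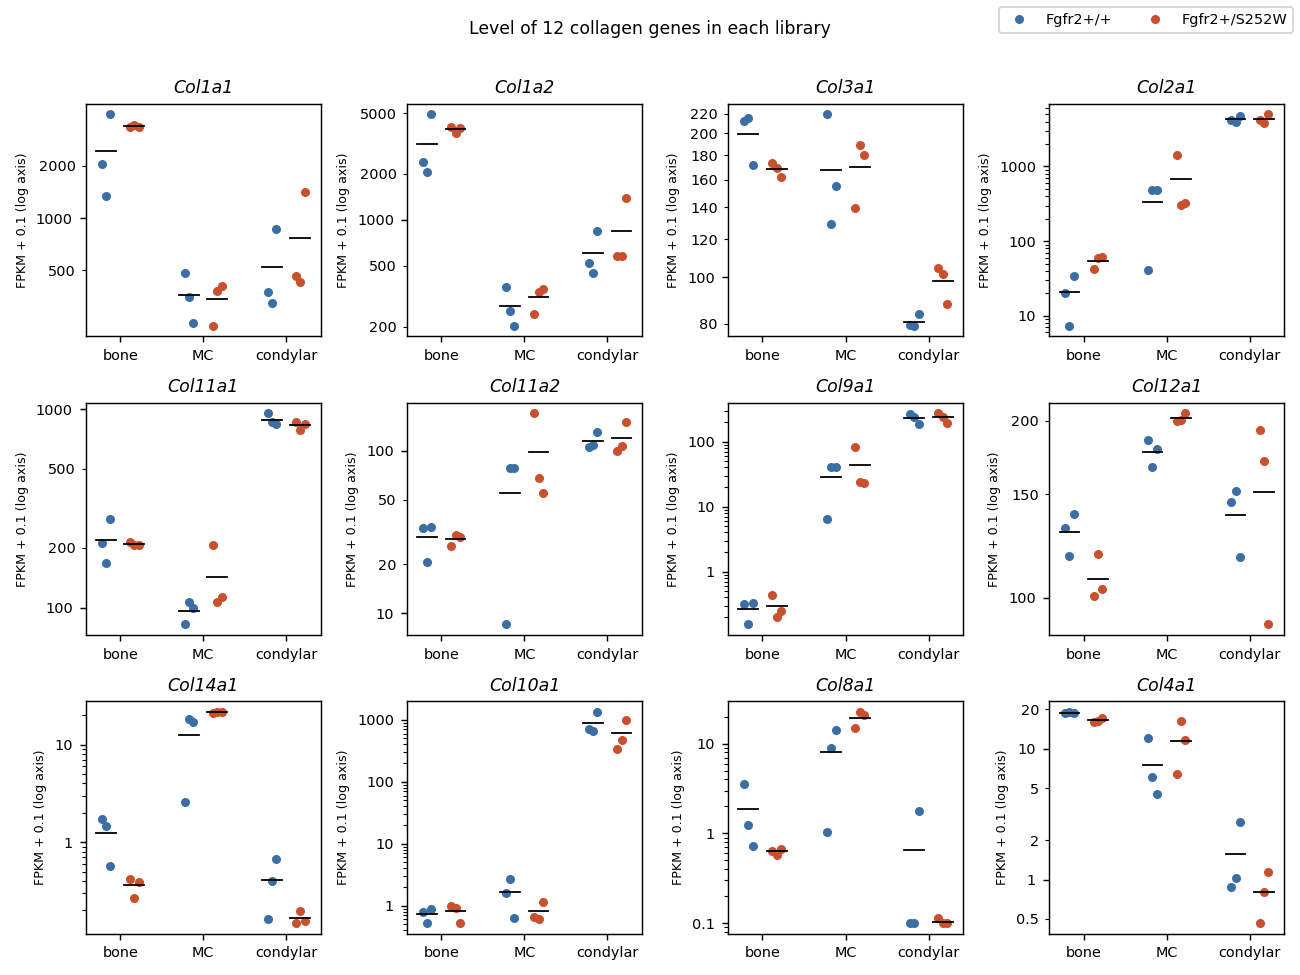
Level of 12 collagen genes in each library as FPKM + 0.1 on a log axis, by tissue on the horizontal axis, with blue points for Fgfr2+/+ and red points for Fgfr2+/S252W libraries and a black line at the mean of each group (n = 3). The condylar libraries lie above all others for Col2a1, Col9a1 and Col10a1 and below all others for Col4a1, and no gene passed the test between genotypes.

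Among the FACIT genes, Col9a1, Col9a2 and Col9a3 encode the chains of type IX collagen, which coats type II fibrils. In bone, Col9a1 was at 0.212, 0.0536 and 0.234 FPKM in the Fgfr2+/+ libraries and 0.337, 0.0972 and 0.143 FPKM in the Fgfr2+/S252W libraries. In MC, Col9a1 was at 6.32, 40.2 and 40.1 FPKM in the Fgfr2+/+ libraries and 81.99, 23.4 and 23.4 FPKM in the Fgfr2+/S252W libraries. In condylar cartilage, Col9a1 was at 265, 242 and 189.6 FPKM in the Fgfr2+/+ libraries and 275, 239 and 194 FPKM in the Fgfr2+/S252W libraries. The tissues did not overlap, and the bone values rest on 3 to 27 fragments per library. Col9a1 was higher in condylar cartilage than in MC (log2 difference 3.06 ± 0.30, limma adjusted p = 1.91e-07) and lower in bone than in condylar cartilage (log2 difference -10.45 ± 0.71, limma adjusted p = 4.50e-09).
In bone, Col9a2 was at 0.847, 0.452 and 0.2896 FPKM in the Fgfr2+/+ libraries and 0.298, 0.622 and 0.2197 FPKM in the Fgfr2+/S252W libraries. In MC, Col9a2 was at 7.59, 37.3 and 39.9 FPKM in the Fgfr2+/+ libraries and 76.6, 23.7 and 19.2 FPKM in the Fgfr2+/S252W libraries. In condylar cartilage, Col9a2 was at 78.05, 78.2 and 75.02 FPKM in the Fgfr2+/+ libraries and 65.7, 54.4 and 62.4 FPKM in the Fgfr2+/S252W libraries. The Fgfr2+/S252W MC replicate 1 reached the condylar range, and the step from MC to condylar cartilage was the smallest of the Col9 genes (log2 difference 1.32 ± 0.28, limma adjusted p = 0.000732). Bone was lower than MC (log2 difference -6.06 ± 0.62, limma adjusted p = 8.47e-07).
In bone, Col9a3 was at 0.242, 0.169 and 0.204 FPKM in the Fgfr2+/+ libraries and 0.622, 0.349 and 0.193 FPKM in the Fgfr2+/S252W libraries. In MC, Col9a3 was at 4.33, 52.4 and 65.5 FPKM in the Fgfr2+/+ libraries and 175, 49.8 and 31.7 FPKM in the Fgfr2+/S252W libraries. In condylar cartilage, Col9a3 was at 545, 488 and 322 FPKM in the Fgfr2+/+ libraries and 429, 319 and 269.5 FPKM in the Fgfr2+/S252W libraries. Bone was below every cartilage library, and condylar cartilage was above every MC library (log2 difference 3.24 ± 0.38, limma adjusted p = 1.58e-06). The fitted difference between bone and condylar cartilage (log2 difference -10.49 ± 0.85, limma adjusted p = 3.38e-08) rests on few fragments in bone and depends on the prior count there.

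Col12a1 and Col14a1 encode FACIT collagens that sit on type I fibrils in fibrous and perichondrial tissue. In bone, Col12a1 was at 132, 117 and 139 FPKM in the Fgfr2+/+ libraries and 101, 118 and 103 FPKM in the Fgfr2+/S252W libraries. In MC, Col12a1 was at 185, 167 and 179 FPKM in the Fgfr2+/+ libraries and 200.01, 201 and 206 FPKM in the Fgfr2+/S252W libraries. In condylar cartilage, Col12a1 was at 145, 152 and 117 FPKM in the Fgfr2+/+ libraries and 193, 170.5 and 89.9 FPKM in the Fgfr2+/S252W libraries. The MC libraries lay above all bone libraries (log2 difference -0.68 ± 0.14, limma adjusted p = 0.000582), and the condylar libraries overlapped with both. The difference between condylar cartilage and MC (log2 difference -0.43 ± 0.14, limma adjusted p = 0.0128) did not pass without either of 2 libraries (-0.31 and -0.23, adjusted p = 0.0826 and 0.0966), the replicates 3 of Fgfr2+/S252W MC and condylar cartilage, nor with edgeR (adjusted p = 0.0525) or without the 4 that stood apart (log2 difference -0.15 ± 0.11, limma adjusted p = 0.258).
In bone, Col14a1 was at 1.62, 1.36 and 0.475 FPKM in the Fgfr2+/+ libraries and 0.321, 0.171 and 0.29001 FPKM in the Fgfr2+/S252W libraries. In MC, Col14a1 was at 2.504, 18.1 and 17.1 FPKM in the Fgfr2+/+ libraries and 20.9, 21.5 and 21.4 FPKM in the Fgfr2+/S252W libraries. In condylar cartilage, Col14a1 was at 0.0643, 0.296 and 0.579 FPKM in the Fgfr2+/+ libraries and 0.0477, 0.09805 and 0.0549 FPKM in the Fgfr2+/S252W libraries. It was above 1 FPKM in 8 libraries, also on the scale of the filter, and so was not tested, although every MC library lay above every other library. The summed level of 7 markers of perichondrium, tendon and fibrous tissue was 126 to 179 FPKM in MC, 28.0 to 58.3 FPKM in condylar cartilage and 56.4 to 186 FPKM in bone, and its part in the Col14a1 level was not tested.

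Col22a1, a FACIT collagen known from tissue junctions, was a gene of bone. Bone libraries had Col22a1 at 14.7, 7.58 and 20.8 FPKM in the Fgfr2+/+ libraries and 12.4, 10.9 and 14.001 FPKM in the Fgfr2+/S252W libraries. In MC, Col22a1 was at 0.658, 0.106 and 0 FPKM in the Fgfr2+/+ libraries and 0.133, 0 and 0.0581 FPKM in the Fgfr2+/S252W libraries. In condylar cartilage, Col22a1 was at 1.95, 1.53 and 3.603 FPKM in the Fgfr2+/+ libraries and 1.05, 1.72 and 6.29 FPKM in the Fgfr2+/S252W libraries. All bone libraries lay above the others, and 2 MC libraries had no fragment. It was higher in bone than in MC (log2 difference 6.99 ± 0.84, limma adjusted p = 4.46e-06), in condylar cartilage than in MC (log2 difference 4.43 ± 0.86, limma adjusted p = 0.000308) and in bone than in condylar cartilage (log2 difference 2.56 ± 0.85, limma adjusted p = 0.0229), where the highest condylar library was again the Fgfr2+/S252W replicate 3. Col16a1 was at 6.41 to 8.93 FPKM in bone, 10.3 to 24.2 in MC and 3.94 to 4.89 in condylar cartilage. Col20a1, under the filter, reached 6.17 FPKM in 1 condylar library, and Col19a1 had at most 7 fragments in a library.

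The network collagens divided MC from condylar cartilage. Col10a1 encodes type X collagen, made by hypertrophic chondrocytes. In bone, Col10a1 was at 0.705, 0.422 and 0.776 FPKM in the Fgfr2+/+ libraries and 0.883, 0.821 and 0.427 FPKM in the Fgfr2+/S252W libraries. In MC, Col10a1 was at 1.51, 2.57 and 0.539 FPKM in the Fgfr2+/+ libraries and 0.555, 0.504 and 1.06 FPKM in the Fgfr2+/S252W libraries. In condylar cartilage, Col10a1 was at 705, 665 and 1343 FPKM in the Fgfr2+/+ libraries and 334, 479 and 993 FPKM in the Fgfr2+/S252W libraries. All 6 condylar libraries lay far above all others (log2 difference 9.42 ± 0.42, limma adjusted p = 3.66e-11 against MC), and the highest value of each genotype came from replicate 3. These libraries had the highest osteoblast marker sums, mostly from Ibsp (2780 FPKM in Fgfr2+/+ and 4193 FPKM in Fgfr2+/S252W). Their sums of 4 hypertrophic chondrocyte markers were also the highest of each genotype. These were 431 FPKM against 371 and 344 FPKM in Fgfr2+/+, and 455 FPKM against 322 and 306 FPKM in Fgfr2+/S252W. Of these markers, Mef2c was lowest in the Fgfr2+/+ replicate 3, and the part of either list in the Col10a1 level was not tested. Bone and MC did not differ past the threshold (log2 difference -0.64 ± 0.52, limma adjusted p = 0.323), with a larger difference without the 4 libraries (log2 difference -1.12 ± 0.40, limma adjusted p = 0.0247).
Type VIII collagen, the product of Col8a1 and Col8a2, forms a hexagonal lattice under endothelia such as that of the cornea. In bone, Col8a1 was at 3.47, 1.15 and 0.63003 FPKM in the Fgfr2+/+ libraries and 0.541, 0.477 and 0.576 FPKM in the Fgfr2+/S252W libraries. In MC, Col8a1 was at 0.946, 8.801 and 14.2 FPKM in the Fgfr2+/+ libraries and 14.9, 22.5 and 20.9 FPKM in the Fgfr2+/S252W libraries. In condylar cartilage, Col8a1 was at 0, 0 and 1.68 FPKM in the Fgfr2+/+ libraries and 0.0131, 0 and 0 FPKM in the Fgfr2+/S252W libraries. The Fgfr2+/+ MC replicate 1 was far below the other MC libraries, and 4 condylar libraries had no fragment while the Fgfr2+/+ replicate 3 had 95. Col8a1 was lower in condylar cartilage than in MC (log2 difference -8.07 ± 1.40, limma adjusted p = 0.000107), a fitted value that depends on the prior count where condylar libraries had no fragment. Its difference between bone and condylar cartilage (log2 difference 3.99 ± 1.22, limma adjusted p = 0.0143) has the same limit, and was 4.49 with edgeR and 5.89 with DESeq2. In limma it did not pass without either of 2 libraries (3.64 and 3.80, adjusted p = 0.0518 and 0.0515).
In bone, Col8a2 was at 6.29, 5.54 and 3.08 FPKM in the Fgfr2+/+ libraries and 3.15, 2.63 and 2.42 FPKM in the Fgfr2+/S252W libraries. In MC, Col8a2 was at 21.6, 25.1 and 34.1 FPKM in the Fgfr2+/+ libraries and 29.3, 33.9 and 29.4 FPKM in the Fgfr2+/S252W libraries. In condylar cartilage, Col8a2 was at 0.6696, 0.648 and 1.45 FPKM in the Fgfr2+/+ libraries and 1.39, 1.42 and 0.686 FPKM in the Fgfr2+/S252W libraries. The order MC, bone, condylar cartilage held without overlap between the libraries of the tissues. Bone was lower than MC (log2 difference -3.00 ± 0.19, limma adjusted p = 8.65e-09), as was condylar cartilage (log2 difference -4.80 ± 0.28, limma adjusted p = 7.13e-10).

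The basement membrane genes differed in the place of condylar cartilage. Col4a1 and Col4a2 encode the chains of the type IV collagen found in most basement membranes, among them that of blood vessels. In bone, Col4a1 was at 18.7, 19.01 and 18.6 FPKM in the Fgfr2+/+ libraries and 15.9, 16.1 and 17.1 FPKM in the Fgfr2+/S252W libraries. In MC, Col4a1 was at 11.9, 5.96 and 4.39 FPKM in the Fgfr2+/+ libraries and 6.36, 16.3 and 11.5 FPKM in the Fgfr2+/S252W libraries. In condylar cartilage, Col4a1 was at 0.784, 0.929 and 2.67 FPKM in the Fgfr2+/+ libraries and 0.364, 0.702 and 1.05 FPKM in the Fgfr2+/S252W libraries. Condylar cartilage was below all other libraries, with the Fgfr2+/+ replicate 3 the highest of its group. Bone exceeded condylar cartilage (log2 difference 4.28 ± 0.31, limma adjusted p = 8.74e-09) and MC (log2 difference 1.01 ± 0.23, limma adjusted p = 0.00155).
In bone, Col4a2 was at 14.6, 12.4 and 12.7 FPKM in the Fgfr2+/+ libraries and 11.4, 11.3 and 11.1 FPKM in the Fgfr2+/S252W libraries. In MC, Col4a2 was at 8.598, 10.8 and 3.54 FPKM in the Fgfr2+/+ libraries and 11.5, 13.6 and 16.1 FPKM in the Fgfr2+/S252W libraries. In condylar cartilage, Col4a2 was at 0.658, 0.6895 and 2.97 FPKM in the Fgfr2+/+ libraries and 0.597, 0.832 and 0.552 FPKM in the Fgfr2+/S252W libraries. Bone and MC overlapped (log2 difference 0.33 ± 0.23, limma adjusted p = 0.257), and bone exceeded condylar cartilage (log2 difference 3.82 ± 0.32, limma adjusted p = 4.38e-08). The summed level of 5 endothelial markers was 47.5 to 62.7 FPKM in bone, 4.85 to 19.99 FPKM in MC and 1.33 to 5.76 FPKM in condylar cartilage, with none of the 5 at 0 throughout a group, and its part in the Col4a1 and Col4a2 levels was not tested.

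Col4a5 and Col15a1 were highest in condylar cartilage. Col15a1 encodes a collagen at the outer side of basement membranes. In bone, Col15a1 was at 3.901, 4.08 and 4.45 FPKM in the Fgfr2+/+ libraries and 3.47, 4.09 and 3.85 FPKM in the Fgfr2+/S252W libraries. In MC, Col15a1 was at 3.19, 3.55 and 5.34 FPKM in the Fgfr2+/+ libraries and 4.36, 4.44 and 3.65 FPKM in the Fgfr2+/S252W libraries. In condylar cartilage, Col15a1 was at 17.7, 13.7 and 10.1 FPKM in the Fgfr2+/+ libraries and 21.95, 18.2 and 7.97 FPKM in the Fgfr2+/S252W libraries. All condylar libraries lay above all bone and MC libraries (log2 difference 1.86 ± 0.22, limma adjusted p = 1.94e-06 against MC), with the lowest values in the replicates 3.
In bone, Col4a5 was at 0.624, 0.393 and 0.631 FPKM in the Fgfr2+/+ libraries and 0.885, 0.827 and 0.622 FPKM in the Fgfr2+/S252W libraries. In MC, Col4a5 was at 0.355, 0.293 and 2.15 FPKM in the Fgfr2+/+ libraries and 0.286, 1.07 and 0.884 FPKM in the Fgfr2+/S252W libraries. In condylar cartilage, Col4a5 was at 3.77, 3.597 and 4.13 FPKM in the Fgfr2+/+ libraries and 2.43, 3.12 and 5.89 FPKM in the Fgfr2+/S252W libraries. It was higher in condylar cartilage than in bone (log2 difference -2.53 ± 0.39, limma adjusted p = 5.49e-05 for bone minus condylar cartilage) and than in MC (log2 difference 2.44 ± 0.37, limma adjusted p = 2.88e-05). Col4a5 and its neighbour Col4a6 lie head to head, 1308 bases apart on chromosome X, and Col4a6 also had its highest values in condylar cartilage, at 0.483 to 2.16 FPKM against 0.0539 to 0.101 in bone and 0 to 0.184 in MC, though it was under the filter. Col4a3 and Col4a4, 126 bases apart on chromosome 1, stayed under 1 FPKM in every library. Col4a1 and Col4a2, on chromosome 8, overlap by 22 bases at their starts, and a fragment over both genes was not counted for either. Col18a1 reached 1.72 to 2.21 FPKM in bone, and Col7a1 stayed under 1 FPKM throughout.

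Type VI collagen, a beaded filament around cells, is built from the chains of Col6a1, Col6a2 and Col6a3, and these genes were all highest in condylar cartilage. Col6a1 was at 22.3 to 28.5 FPKM in bone, 28.4 to 61.04 in MC and 70.7 to 112 in condylar cartilage, Col6a2 at 21.4 to 26.1, 25.02 to 51.8 and 53.6 to 102, and Col6a3 at 38.2 to 59.8, 51.1 to 65.7 and 138 to 176. All 3 were higher in condylar cartilage than in bone (log2 differences of bone minus condylar cartilage -1.79, -1.73 and -1.63) and than in MC (0.95, 0.79 and 1.502). Col6a1 and Col6a2 were lower in bone than in MC, whereas Col6a3 did not pass (log2 difference -0.13 ± 0.11, limma adjusted p = 0.329). Col6a4, Col6a5 and Col6a6 stayed under 1 FPKM in every library.

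The transmembrane collagens were low. Col13a1 encodes a collagen of cell contacts. Bone libraries held Col13a1 at 8.14, 6.06 and 8.298 FPKM in the Fgfr2+/+ libraries and 8.56, 10.6 and 8.57 FPKM in the Fgfr2+/S252W libraries. In MC, Col13a1 was at 2.88, 0 and 0 FPKM in the Fgfr2+/+ libraries and 0.418, 1.41 and 0.274 FPKM in the Fgfr2+/S252W libraries. In condylar cartilage, Col13a1 was at 2.37, 1.97 and 3.27 FPKM in the Fgfr2+/+ libraries and 2.18, 1.83 and 8.66 FPKM in the Fgfr2+/S252W libraries. Bone was above MC (log2 difference 4.08 ± 0.75, limma adjusted p = 0.00027), and the Fgfr2+/S252W condylar replicate 3 lay in the bone range. In bone, Col23a1 was at 1.59, 0.806 and 1.34 FPKM in the Fgfr2+/+ libraries and 0.9102, 0.958 and 1.08 FPKM in the Fgfr2+/S252W libraries. In MC, Col23a1 was at 1.17, 2.101 and 2.06 FPKM in the Fgfr2+/+ libraries and 0.862, 1.45 and 2.32 FPKM in the Fgfr2+/S252W libraries. In condylar cartilage, Col23a1 was at 0.131, 0.02897 and 0.299 FPKM in the Fgfr2+/+ libraries and 0.0467, 0.0599 and 0.112 FPKM in the Fgfr2+/S252W libraries. It was lower in condylar cartilage than in MC (log2 difference -3.93 ± 0.47, limma adjusted p = 1.90e-06) and than in bone (log2 difference 3.44 ± 0.41, limma adjusted p = 2.59e-06 for bone minus condylar cartilage). Col25a1 is described with the genotypes. Col17a1, a collagen of epithelial attachment, stayed under 1 FPKM, as did Col28a1 in the remaining class. Col26a1 was at 2.13 to 6.48 FPKM in bone, 3.43 to 8.67 in MC and 7.46 to 15.6 in condylar cartilage.

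Since members that differ between tissues may be read beside their promoters, the 100 bases before the start of 4 of them are shown from RefSeq (GRCm38.p6), read along the strand of the gene, with matches in capitals to the TATA motif TATAAA, to the CCAAT box (the letters of its name) or to the GC box motif GGGCGG. Both strands were searched, and matches to different motifs may share letters. Of the 44 genes, 35 had an entry, with 38 windows.
Col10a1, chr10:34389881-34389980, highest in condylar cartilage: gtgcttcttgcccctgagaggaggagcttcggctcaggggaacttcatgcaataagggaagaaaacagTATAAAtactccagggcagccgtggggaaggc
Col9a2, chr4:121039466-121039565, higher in both cartilages than in bone: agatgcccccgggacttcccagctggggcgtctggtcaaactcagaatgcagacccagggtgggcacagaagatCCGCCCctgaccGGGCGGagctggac
Col8a1, chr16:57754738-57754837, highest in MC: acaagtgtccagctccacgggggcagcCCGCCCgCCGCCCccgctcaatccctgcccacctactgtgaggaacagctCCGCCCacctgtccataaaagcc
Col1a2, chr6:4505518-4505617, highest in bone: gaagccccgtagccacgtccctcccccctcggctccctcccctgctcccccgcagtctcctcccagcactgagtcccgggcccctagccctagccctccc
TATAAA occurred in the windows of Col10a1 and Col17a1, 5.26% of the collagen windows against 5.56% of the 32851 windows of all genes. CCAAT occurred in 10.5% against 18.9%, and GGGCGG in 47.4%, 18 of the 38 windows, against 24.7%. The window of Col1a2 held none of the 3 motifs. The RefSeq starts used for Col1a2 and Col9a2 lie inside the genes as annotated for the counts, which begin at 4504814 and 121039385. These are matches of letters and no measure of binding.

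The ratio between chains that assemble together was computed per library from levels per exon length, with 0.5 fragments added. The 12 pairs gave 36 differences between tissues, tested by exact sign flips over the 6 embryos (two-sided), where the smallest possible p is 0.0312. A total of 15 differences reached it and none passed after adjustment (adjusted p = 0.075). The ratio of Col1a1 to Col1a2 ranged over 0.645 to 0.925 in bone, 0.981 to 1.39 in MC and 0.712 to 1.02 in condylar cartilage, and was lower in bone than in MC in all 6 embryos (log2 difference -0.54 ± 0.31, SD, n = 6, exact p = 0.0312). Col5a1 to Col5a2 went the same way, 0.419 to 0.687 in bone against 0.795 to 1.77 in MC and 0.956 to 1.64 in condylar cartilage. Col11a1 to Col11a2 was 6.35 to 8.32 in bone and 5.57 to 9.07 in condylar cartilage, but 1.21 to 2.06 in 5 MC libraries and 9.76 in the Fgfr2+/+ MC replicate 1. Col6a1 to Col6a2 stayed between 0.958 and 1.32 in all 18 libraries.

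Ratios between fibril types covered wider ranges. The ratio of Col3a1 to Col1a1 was 0.0432 to 0.162 in bone, 0.0623 to 0.247 in condylar cartilage and 0.369 to 0.629 in MC, with the same order in every embryo (bone minus MC -2.87 ± 1.01, SD, n = 6, exact p = 0.0312). The ratio of Col2a1 to Col1a1 was 0.00549 to 0.0181 in bone, 0.0864 to 5.899 in MC and 3.54 to 12.2 in condylar cartilage. The lowest MC value of the latter was that of the Fgfr2+/+ replicate 1. Col9a1 to Col9a2 was 0.831 to 1.22 in MC and 2.53 to 4.39 in condylar cartilage, without overlap. Ratios of the Col9 genes in bone and of the Col8 genes in condylar cartilage rest on fewer than 20 fragments in some libraries and are not described. Between genotypes, 6 of 36 ratios did not overlap, for which 3 against 3 libraries allow no exact p below 0.1 (adjusted p = 0.6). Without any difference, groups of this size also fail to overlap at a rate of 0.1.

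**Figure D4:**
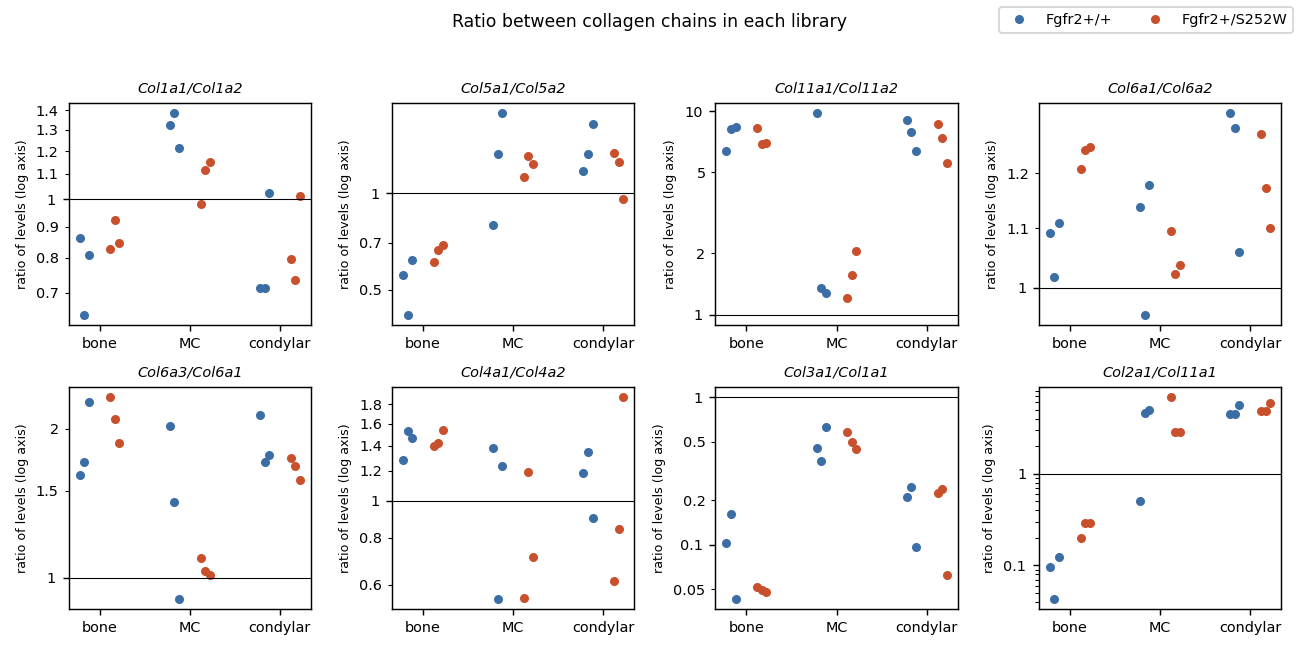
Ratio of the levels of 2 collagen chains in each library on a log axis, for 8 pairs, with tissues on the horizontal axis, blue points for Fgfr2+/+ and red points for Fgfr2+/S252W, and a line at a ratio of 1. Col6a1/Col6a2 stays near 1 in all libraries, whereas Col3a1/Col1a1 and Col2a1/Col11a1 shift between tissues.

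Genes that make collagen were read from a list of 32 with known roles in folding, modification, secretion, trimming and cross-linking, of which 31 were tested. Between bone and MC, 24 were higher in bone and 5 lower, and between condylar cartilage and MC, 26 were higher in condylar cartilage and 4 lower. Between bone and condylar cartilage, 7 were higher in bone and 18 lower. Of all genes, 24.7% and 24.6%, 27.1% and 27.4%, and 21.6% and 19.6% were higher and lower in these comparisons. The median log2 difference of the 31 was 1.52, 2.02 and -0.63, against -0.0024, -0.0077 and -0.0027 for all genes. To show single steps, 5 genes were picked after their values were seen. Serpinh1, the collagen chaperone, was lower in bone than in condylar cartilage (log2 difference -0.63 ± 0.15, limma adjusted p = 0.00257), as was the prolyl hydroxylase subunit P4ha1 (log2 difference -1.41 ± 0.16, limma adjusted p = 2.04e-06) and the lysyl hydroxylase Plod2 (log2 difference -1.73 ± 0.17, limma adjusted p = 2.51e-07). Adamts2, which removes the amino-terminal propeptide, was higher in bone than in condylar cartilage (log2 difference 3.20 ± 0.28, limma adjusted p = 9.38e-08), and so was the cross-linking enzyme Lox (log2 difference 1.44 ± 0.17, limma adjusted p = 3.39e-06). All 5 were higher in bone than in MC (log2 difference 0.60 ± 0.17, limma adjusted p = 0.00679 for Plod2, the smallest of these differences). None of the 31 passed the test between genotypes in any tissue.

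Between genotypes, none of the 30 collagen genes passed the test in bone (0.0872% of all genes did), in MC (0%) or in condylar cartilage (0%) with limma. None did with edgeR, which called 0.0349%, 0.785% and 0% of all genes, or with DESeq2, which called 0.157%, 3.69% and 0.0262%. At an unadjusted p under 0.05 limma gave 4 genes in bone, 6 genes in MC and 1 gene in condylar cartilage, against 932, 1761 and 351 of all 11469 genes. The corresponding counts were 3, 2 and 3 with edgeR, against 561, 1943 and 399 of all genes, and 4, 4 and 3 with DESeq2, against 666, 2091 and 462. The median log2 difference of Fgfr2+/S252W minus Fgfr2+/+ was -0.026 for bone, 0.28 for MC and 0.018 for condylar cartilage, against -0.00074, 0.026 and -0.01 for all genes. The 95% interval lay within 1 log2 unit on both sides of 0 for 15, 13 and 15 of the 30 genes, and for the other genes it reached past a factor of 2 in at least 1 direction. The 2 groups did not overlap for 7 genes in bone (20.4% of all genes did not), 6 in MC (13.4%) and 2 in condylar cartilage (9.77%). Col8a1, among the 7, had passed the filter with the 6 MC libraries, 2 Fgfr2+/+ bone libraries and 1 Fgfr2+/+ condylar library, thus outside MC through the genotype where it is high, and its values in bone and condylar cartilage are no independent result. No gene passed the test of a different genotype effect between bone and MC (0.0349% of all genes did), between bone and condylar cartilage (0%) or between condylar cartilage and MC (0%), with 2, 2 and 4 at an unadjusted p under 0.05 in limma, against 1046, 221 and 904 of all genes.

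**Figure D5:**
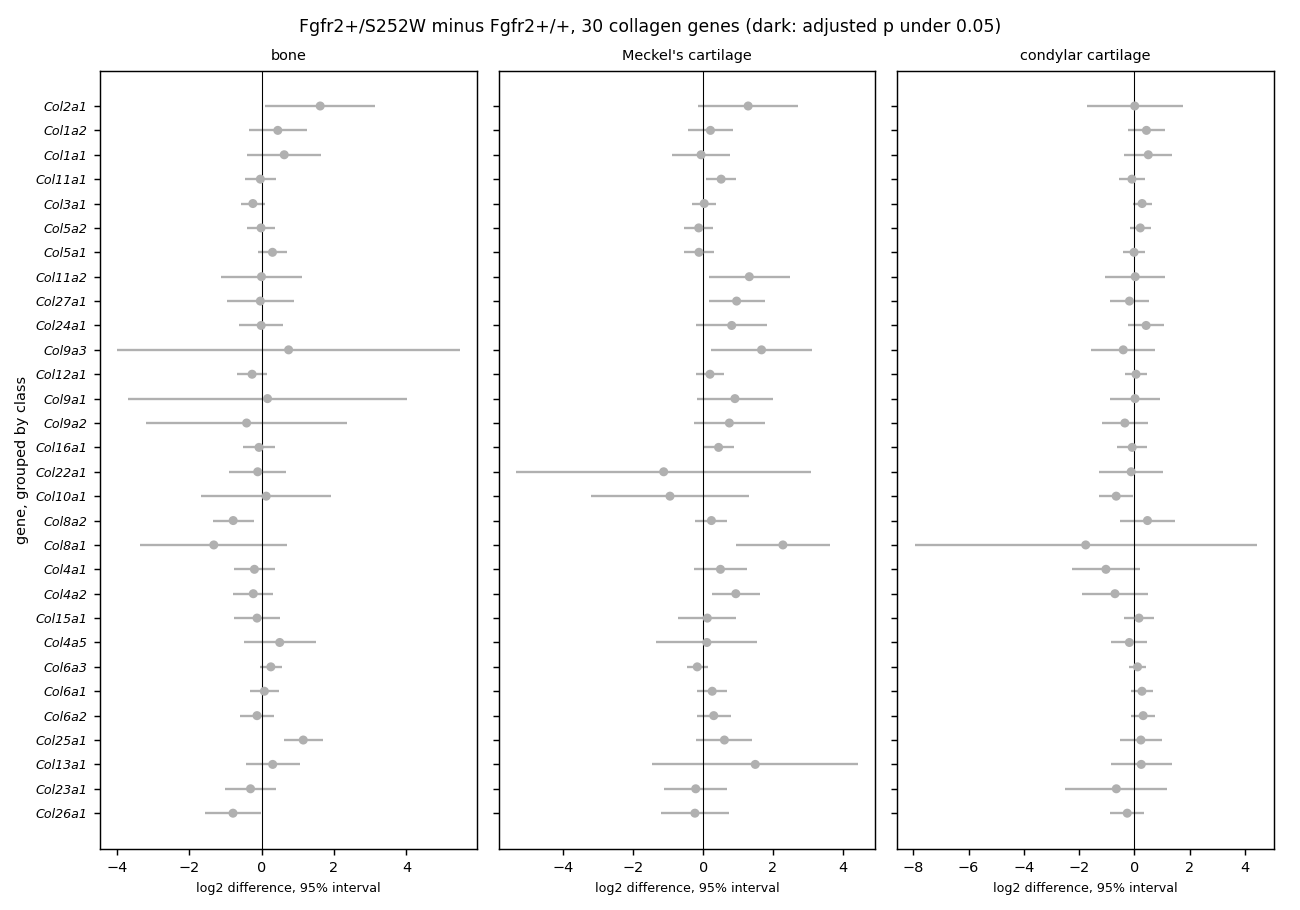
Log2 difference of Fgfr2+/S252W minus Fgfr2+/+ for the 30 tested collagen genes with 95% intervals, in bone, MC and condylar cartilage. All symbols are light, since no adjusted p is under 0.05. The interval of Col25a1 in bone runs from 0.62 to 1.68.

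Col25a1, a transmembrane collagen known from brain and from the innervation of muscle, had the smallest p in bone. In bone, Col25a1 was at 4.79, 3.198 and 6.21 FPKM in the Fgfr2+/+ libraries and 10.4, 9.53 and 10.9 FPKM in the Fgfr2+/S252W libraries. In MC, Col25a1 was at 2.29, 2.66 and 2.74 FPKM in the Fgfr2+/+ libraries and 3.13, 5.09 and 3.802 FPKM in the Fgfr2+/S252W libraries. In condylar cartilage, Col25a1 was at 2.49, 1.35 and 2.05 FPKM in the Fgfr2+/+ libraries and 1.63, 1.74 and 5.02 FPKM in the Fgfr2+/S252W libraries. The genotypes did not overlap in bone or MC, with Fgfr2+/S252W higher, and overlapped in condylar cartilage. The bone difference did not pass in the fit of all libraries (log2 difference 1.15 ± 0.26, limma adjusted p = 0.0965) and passed when the bone libraries were fitted alone (log2 difference 1.15 ± 0.20, limma adjusted p = 0.019), where it was the only collagen gene of 26 tested and 1.14% of all genes passed. The difference of its genotype effect between tissues did not pass (log2 difference 0.51 ± 0.43, limma adjusted p = 0.734 for bone minus MC).

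In bone, the comparison of the type I genes depended on the Fgfr2+/+ replicate 3. Col1a1 (log2 difference 0.62 ± 0.49, limma adjusted p = 0.838), Col1a2 (log2 difference 0.45 ± 0.38, limma adjusted p = 0.847) and Col2a1 (log2 difference 1.62 ± 0.73, limma adjusted p = 0.599) did not pass with all libraries. This replicate had the highest Col1a1 and Col1a2 of all bone libraries, and the lowest mitochondrial share. Without it, the Fgfr2+/+ bone libraries all had a higher mitochondrial share than the Fgfr2+/S252W ones, so that this share and the genotype cannot be told apart. In the fit of all libraries, 4 collagen genes passed in bone with sample quality weights (5.14% of all genes), 2 without this replicate (0.811%) and 1 without a filter (0.205%). With the bone libraries fitted alone without it, a choice made after its values were seen, 8 of 25 collagen genes passed, against 11.4% of all genes. Col1a1 (log2 difference 1.02 ± 0.17, limma adjusted p = 0.0034), Col1a2 (log2 difference 0.80 ± 0.12, limma adjusted p = 0.00268), Col5a1 (log2 difference 0.55 ± 0.15, limma adjusted p = 0.0343), Col2a1 (log2 difference 2.12 ± 0.31, limma adjusted p = 0.00189) and Col25a1 (log2 difference 1.37 ± 0.17, limma adjusted p = 0.000997) were then higher in Fgfr2+/S252W, and Col3a1 (log2 difference -0.36 ± 0.11, limma adjusted p = 0.045), Col8a2 (log2 difference -1.14 ± 0.16, limma adjusted p = 0.00179) and Col26a1 (log2 difference -1.27 ± 0.19, limma adjusted p = 0.00202) lower. In the fit of all tissues without the 4 libraries that stood apart, 10 of 31 passed in bone, against 6.52% of all genes. These were 6 higher, the 5 above and Col6a3 (log2 difference 0.41 ± 0.12, limma adjusted p = 0.04), and 4 lower, Col8a2, Col26a1, Col8a1 and Col14a1. Col8a1 and Col14a1 entered that fit with 7 of 14 libraries over the minimum, those of MC and the 2 Fgfr2+/+ bone libraries but no Fgfr2+/S252W bone library, so that the filter took them through the genotype where they are high and their calls are no independent result. The genotype effect differed between bone and MC for Col1a1 and Col8a2, and for Col8a1 and Col14a1 with the same limit, 4 of the 31 genes in all (0.704% of all genes), and between bone and condylar cartilage for 1, Col8a2 (0.261%). With the Fgfr2+/S252W MC replicate 1 left out too, neither Col8a1 nor Col14a1 was tested, and 9 of 29 genes passed in bone (7.93% of all genes), the same 6 higher and Col8a2, Col26a1 and Col3a1 lower. The genotype effect then differed between bone and MC for 6 genes (2.32%), Col1a1, Col2a1, Col3a1, Col4a1, Col6a3 and Col8a2, and between bone and condylar cartilage for 4 (0.825%), Col2a1, Col3a1, Col8a2 and Col25a1. The summed level of the 8 chondrocyte markers was 14.8 to 17.3 FPKM in Fgfr2+/S252W bone and 11.6 to 14.4 FPKM in Fgfr2+/+ bone. Most of it was Hapln1 (8.30 to 11.1 FPKM and 6.37 to 8.76 FPKM) and Sox9 (5.36 to 5.53 FPKM and 3.73 to 5.05 FPKM). Acan went the other way without overlap (0.0291 to 0.397 FPKM and 0.509 to 0.928 FPKM). The summed level of the 7 fibrous tissue markers was 56.4 to 62.3 FPKM in Fgfr2+/S252W bone and 103 to 186 FPKM in Fgfr2+/+ bone, and that of 9 osteoblast markers 4135 to 5413 FPKM and 4580 to 5444 FPKM. Members of the latter list parted in opposite directions, with Ibsp at 1715 to 2039 FPKM in Fgfr2+/S252W and 2401 to 3433 FPKM in Fgfr2+/+ bone and Spp1 at 1829 to 2808 FPKM and 1394 to 1777 FPKM, while Dmp1, Bglap and Bglap2 were also higher in every Fgfr2+/S252W library. The 5 osteoclast markers summed to 577 to 757 FPKM in Fgfr2+/S252W and 364 to 446 FPKM in Fgfr2+/+ bone, and the 5 erythroid markers to 319 to 624 FPKM and 1304 to 1514 FPKM. The 6 skeletal muscle markers summed to 62.5 and 53.3 FPKM in Fgfr2+/+ bone replicates 1 and 2, against 6.62 FPKM in replicate 3 and 0.473 to 6.93 FPKM in Fgfr2+/S252W bone, which is the split of the libraries in the comparison without replicate 3. Of the 5 macrophage markers, Cd68, which osteoclasts also express, was at 74.9 to 105.7 FPKM in Fgfr2+/S252W and 32.5 to 57.1 FPKM in Fgfr2+/+ bone and made up most of their sum of 76.96 to 107.6 FPKM and 41.1 to 62.99 FPKM. The other 4 were lower in every Fgfr2+/S252W bone library than in every Fgfr2+/+ one, such as C1qb at 0.7998 to 0.937 FPKM against 3.74 to 5.104 FPKM. Their part in these differences was not tested.

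In MC, Col8a1 had the smallest limma p (log2 difference 2.28 ± 0.65, limma adjusted p = 0.127). Its Fgfr2+/S252W libraries all lay above the Fgfr2+/+ libraries, of which replicate 1 was at 0.946 FPKM. Without the 4 libraries that stood apart the difference was smaller and did not pass (log2 difference 0.75 ± 0.27, limma adjusted p = 0.2). Col9a3, Col11a1, Col11a2, Col27a1 and Col4a2 were the other 5 with an unadjusted limma p under 0.05, with log2 differences of 1.67, 0.51, 1.32, 0.96 and 0.93. For all of these but Col4a2, the lowest MC level was that of the Fgfr2+/+ replicate 1 and the highest that of the Fgfr2+/S252W replicate 1. Both libraries lay far from their groups, as given above. Among the other MC libraries, Col9a3 and Col11a2 were lower in each Fgfr2+/S252W library than in each Fgfr2+/+ one. The chondrocyte marker sum in MC was 27.2 to 130 FPKM in Fgfr2+/+ and 70.1 to 355 FPKM in Fgfr2+/S252W. The macrophage markers summed to 11.9 to 35.7 FPKM in Fgfr2+/+ MC and 37.2 to 49.2 FPKM in Fgfr2+/S252W MC, and the osteoclast markers to 27.7 to 70.4 FPKM and 20.01 to 24.1 FPKM. The part of these markers in the collagen values was not tested. In condylar cartilage, the gene with an unadjusted limma p under 0.05 was Col10a1 (log2 difference -0.66 ± 0.29, limma adjusted p = 0.998), whose groups overlapped. With edgeR and with DESeq2 it was not under 0.05, and Col4a1, Col4a2 and Col8a1 were, each of them with its highest condylar level in the Fgfr2+/+ replicate 3. The muscle markers summed to 0.537 to 1.77 FPKM in Fgfr2+/S252W and 1.85 to 35.1 FPKM in Fgfr2+/+ condylar cartilage, and their part was not tested.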

How the data were processed

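RNA of laser-captured mandibular bone, MC and mandibular condylar cartilage was amplified (NuGEN Ovation RNA-Seq System v2), made into Nextera XT libraries and sequenced as paired ends by the authors. Alignment to mm10 used STAR, and fragments were assigned to genes by featureCounts 1.5.0-p1 without regard to strand, so that the deposited values are raw counts; cutadapt, RSEM and limma are also named in the submitters' processing notes. Whether duplicates were removed is not given in the sources used here. Totals of 8218548 to 15585778 fragments leave genes with few fragments imprecise.

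The counts were then read into R 4.3.3 and tested with limma 3.58.1, with edgeR 4.0.16 and DESeq2 1.42.0 as alternatives. The filter required over 1 FPKM, from library totals, in 50% or more of the libraries and kept 11469 genes, which were scaled by TMM and fitted by voom and lmFit, with 6 group means for genotypes and the embryo as a block for tissues and for differences of genotype effects. Values after ± are standard errors unless SD is stated, and p-values were adjusted by Benjamini and Hochberg with a threshold of 0.05. The tissue and genotype of a library were taken from its labels, and that the same number within a genotype stands for 1 embryo was inferred from the sample codes. Ratios were tested in Python 3.11.15 with SciPy 1.17.1. The fits were tested on simulated data.

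Collagen genes, groups and lists were chosen with earlier results of these data known. Genes given per library were the 4 highest of the fibrillar, FACIT, network and basement membrane groups, the 3 largest rises and falls past the threshold between tissues, any gene past it between genotypes in the fit of all libraries or of a tissue alone, and Col1a1, Col1a2, Col2a1, Col3a1, Col9a1, Col10a1, Col11a2, Col12a1 and Col14a1 whatever their values. Alternatives were other tools, filters, size factors, weights and blocks, and leaving out libraries. Equal replicate numbers in the genotypes did not mark shared litters in the labels. Markers of epithelium, muscle, blood, macrophages and osteoclasts were summed too, and epithelial markers were at most 1.89 FPKM in sum in any library.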

Additional observations from a re-analysis of the deposited data

How the results depend on the processing

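For the tissue comparisons, 22, 28 and 29 collagen genes passed, with 20 to 22, 25 to 29 and 25 to 28 when 1 library was left out at a time, and no alternative moved these counts by over 1.5 times. With the filter on TMM-scaled FPKM, added after the data were seen, 27 collagen genes were tested and 21, 24 and 26 passed between tissues (49.7%, 42.1% and 54.7% of all genes) and 0 between genotypes (0.0968%, 0% and 0%). Among 3895 values of single genes under the alternatives, 62 fell under the threshold, 56 passed it, 125 changed sign without passing in either fit and 1 that had passed changed sign (Col1a1 between condylar cartilage and MC, -0.0063 without the 4 libraries that stood apart and the Fgfr2+/S252W MC replicate 1). The genotype count of 0 in bone became 1 without a filter (0.205% of all genes), 4 with sample quality weights (5.14%), 1 with bone fitted alone (1.14%), 8 with bone fitted alone without the Fgfr2+/+ replicate 3 (11.4%) and 10 without the 4 libraries that stood apart (6.52%) and 9 without these and the Fgfr2+/S252W MC replicate 1 (7.93%), and was 0 to 2 when 1 library was left out, with the 2 from leaving out that replicate (Col25a1 and Col8a2, 0.811% of all genes). It stayed at 0 in MC and condylar cartilage under every alternative that was run. Differences of the genotype effect rose from 0 to 4 (bone minus MC) and 1 (bone minus condylar cartilage) without the 4 libraries and to 6 and 4 without all 5, a choice made after the data were seen. Beyond fewer libraries, the cause was not tested.

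Whether equal replicate numbers pair the genotypes could not be decided. Deviations from the group means correlated at 0.0493 on average over 9 pairs (-0.20 to 0.33), with 4 above 0.1. Libraries taken as the same embryo in other tissues correlated at -0.000186 on average over 18 pairs, with 1 above 0.1. The measure thus did not show the pairing that the embryo block assumes either. A replicate block left 0 collagen genes past the threshold in each tissue in the fit of all libraries, and 4 in bone fitted alone with the block (Col25a1, Col8a2, Col26a1 and Col2a1, against 4.5% of all genes). Without a replicate block for the embryo the tissue counts stayed within 1.5 times, and 22 of 36 chain ratios passed in an exact test of 6 against 6 libraries in place of 0. Leaving out 1 embryo left 0, since 5 embryos allow no p below 0.0625.

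Collagen shares without mitochondrial genes and Gm42418 were 10.2%, 3.19% and 9.03% in Fgfr2+/S252W bone, MC and condylar cartilage and 8.30%, 2.30% and 8.80% in Fgfr2+/+. The shares of all fragments, with 1 library left out, ranged from 7.13% to 7.21%, 0.811% to 1.201% and 5.24% to 5.49% in Fgfr2+/S252W and from 3.60% to 6.18%, 0.682% to 0.983% and 5.40% to 5.82% in Fgfr2+/+. Chain ratios without overlap between genotypes numbered 6 to 10 with 1 library left out, the 10 without the Fgfr2+/+ condylar replicate 3. Groups with fewer libraries fail to overlap more often without any difference.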
